A study of Mus musculus with 4 samples.

Results

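Genes that translocate, fold, glycosylate and clear secretory proteins in the endoplasmic reticulum (ER), together with the sensors of the unfolded protein response, were followed through mucous neck cells and zymogenic (chief) cells of the mouse stomach, with and without the transcription factor MIST1. The genes were a list of 48 chosen by name, in 5 classes: 17 chaperones and folding enzymes, 12 genes of translocation and signal peptide cleavage, 6 of the oligosaccharyltransferase, 9 of ER-associated degradation, and 4 that are the 3 stress sensors and Xbp1. Probe sets naming a single gene measured 47 of the 48, out of 19938 genes measured in that way. Sec61g, the small gamma subunit of the translocon, was covered by 4 probe sets that each name several genes, and no value is given for it.

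Each of the 4 groups was 1 Affymetrix Mouse Gene array: neck cells of wild-type mice, neck cells of MIST1 knockout mice, zymogenic cells of wild-type mice and zymogenic cells of MIST1 knockout mice, all adult and on a C57BL/6 background. MIST1 is encoded by Bhlha15, and the knockout animals are called MIST1-null below. The cells were cut from frozen stomach sections by laser capture, and RNA of several dissections and animals was pooled to about 100 ng for an array; 4 wild-type and 5 MIST1-null animals were dissected, with 2 caps each, per the design text. Zymogenic cells were recognised by position, below the cells stained by the lectin GS-II and without the outline of parietal cells. With 1 array per group the spread between samples of a group is unknown, and no difference below carries an error, a test or a p-value.

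The ER is where secretory proteins enter the export route. A nascent chain is threaded through the Sec61 channel, loses its signal peptide, receives sugar chains from the oligosaccharyltransferase and is folded by chaperones and disulfide isomerases, while chains that fail are pulled back to the cytosol and degraded. When unfolded protein builds up, the membrane sensors IRE1 (encoded by Ern1), PERK (Eif2ak3) and ATF6 set off the unfolded protein response; IRE1 splices the Xbp1 message, and XBP1 and ATF6 then switch on many of the genes described here. Zymogenic cells carry an extensive rough ER for making pepsinogen, and XBP1 is known to act upstream of MIST1 in their maturation. Neck cells make mucins, which also pass through the ER.

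Values are array intensities as deposited. Differences are on the log2 scale, where 1 is 2-fold, and are written as zymogenic minus neck or as MIST1-null minus wild-type. A gene was counted where the mean of its log2 intensities over the 4 arrays reached 5.45, the median over all single-gene probe sets and equal to an intensity of 43.7. This limit was set by size, since no background was measured. It was passed by 9791 genes and by 46 of the 47 measured members. Ern1 lay just inside, with a mean of 5.48, and Edem2, a mannosidase-like protein of degradation, just outside at 5.28, with intensities of 35.1 in both neck arrays, 41.1 in wild-type zymogenic and 44.4 in MIST1-null zymogenic cells.

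Bhlha15 itself read 59.7 in wild-type neck, 20.2 in MIST1-null neck, 149.8 in wild-type zymogenic and 22.0 in MIST1-null zymogenic cells, so it was lower in each MIST1-null array than in the wild-type array of the same cells. The sources used here do not place its probes inside or outside the deletion. Of 6 mucous neck markers, 5 were lower in zymogenic cells by 2-fold or more in both genotypes, and their summed intensity was 9616 and 11845 in the neck arrays against 1839 and 689 in the zymogenic arrays. Pgc, the brightest zymogenic marker, read 8698 and 8672 in neck and 9982 and 10638 in zymogenic cells of wild-type and MIST1-null mice, a difference of only 0.20 and 0.29. The zymogenic products Cblif and Chia1 were higher in zymogenic cells in both genotypes, Pga5 was far lower, and Lipf and Cym lay under the filter. Other cells' markers differed between the arrays. All 5 surface mucous markers were higher in zymogenic cells in both genotypes, with medians of 0.46 and 0.79, and their summed intensity was 8977 and 10762 in zymogenic against 6761 and 6670 in neck cells. All 11 parietal markers were higher in MIST1-null than in wild-type zymogenic cells, and their summed intensity was 4831 in the wild-type zymogenic array against 8450 to 10172 in the other 3 arrays. Summed over 9 genes each, endocrine markers were at 8866 and 12888 in zymogenic against 5856 and 3779 in neck cells, and fibroblast and smooth muscle markers at 1132 and 1266 against 510 and 336; 8 leukocyte markers were at 705 and 571 against 444 and 247. Markers of plasma and B cells summed to 403 and 452 in zymogenic against 389 and 422 in neck cells over 11 measured genes, of which 3 passed the filter; among those under it, Jchain read 67.4 and 53.0 against 24.2 and 16.5. No marker in these lists was at 0, but the lowest of all probe sets read 0.86 to 1.00 across the arrays. A reading above 0 therefore does not show that a cell type was present. The part of these other cells in the differences below was not tested. In pooled captures fewer cells of a type cannot be told apart from less RNA per cell.

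Many genes of this kind are known to be switched on through the ER stress element, a promoter sequence read by ATF6 and XBP1 together with the factor NF-Y. The element was searched for in RefSeq promoter windows of mouse assembly GRCm38.p6, which run from 250 bases before to 50 bases after a gene's start. Windows existed for 40 of the 48 genes. The element (CCAAT, any 9 bases, then CCACG, on either strand) was found in 9 of the 40 genes, or 22.5%, against 0.137% of all 27025 genes with a window. Its second form (ATTGG, any 1 base, then CCACG) was found in 2 of the 40, or 5.00%, against 0.0444%. Together they marked 11 of the 40, or 27.5%, against 0.181%, and those 11 made up 22.4% of the 49 genes with either form. Since the element is known from genes of this kind, these shares describe the list and are not a result of the arrays. By class, 8 of 15 chaperones and folding enzymes and 3 of 8 degradation genes with a window held one, against 0 of 9 translocation genes, 0 of 5 oligosaccharyltransferase genes and 0 of 3 sensors. The stretches are shown because the genes that hold them are followed as a group below. The elements are in capitals, each line reads 5′ to 3′ on the gene's strand, and an element beginning with CGTGG lies on the opposite strand.
Hspa5, chr2:34771918-34772058, plus strand: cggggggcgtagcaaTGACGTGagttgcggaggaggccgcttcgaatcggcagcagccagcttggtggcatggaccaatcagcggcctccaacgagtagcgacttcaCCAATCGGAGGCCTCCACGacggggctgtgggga
Hsp90b1, chr10:86705518-86705671, minus strand: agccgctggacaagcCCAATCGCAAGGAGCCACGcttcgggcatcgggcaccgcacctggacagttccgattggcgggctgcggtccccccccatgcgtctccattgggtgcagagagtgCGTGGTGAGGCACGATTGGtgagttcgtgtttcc
Canx, chr11:50325785-50325833, minus strand: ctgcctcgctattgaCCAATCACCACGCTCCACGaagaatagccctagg
Calr, chr8:84847060-84847108, minus strand: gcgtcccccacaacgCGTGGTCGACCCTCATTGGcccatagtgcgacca
Pdia6, chr12:17266476-17266524, plus strand: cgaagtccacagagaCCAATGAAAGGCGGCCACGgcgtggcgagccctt
Dnajc3, chr14:118937812-118937860, plus strand: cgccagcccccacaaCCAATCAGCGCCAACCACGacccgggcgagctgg
Creld2, chr15:88819505-88819553, plus strand: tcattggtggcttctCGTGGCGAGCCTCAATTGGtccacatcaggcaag
Derl3, chr10:75893227-75893275, plus strand: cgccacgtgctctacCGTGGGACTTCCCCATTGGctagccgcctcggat
Syvn1, chr19:6046517-6046565, plus strand: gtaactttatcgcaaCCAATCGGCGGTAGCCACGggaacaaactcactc
Herpud1, chr8:94386362-94386402, plus strand: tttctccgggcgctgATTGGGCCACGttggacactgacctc

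In Hspa5 the first run of capitals is the core of another stress sequence, the unfolded protein response element (TGACGTG), which was found in 1 of the 40 genes, or 2.50%, against 2.22% of all genes. Hsp90b1 held the ER stress element at 2 places. Herpud1 holds the second form, as does Dnajb11, where it lies after the start and is not printed. The E-box CATATG, known to be bound by MIST1, was in 0 of the 40 windows and in 4.48% of all genes, which says only that these letters are not in these windows.

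**Figure D1:**
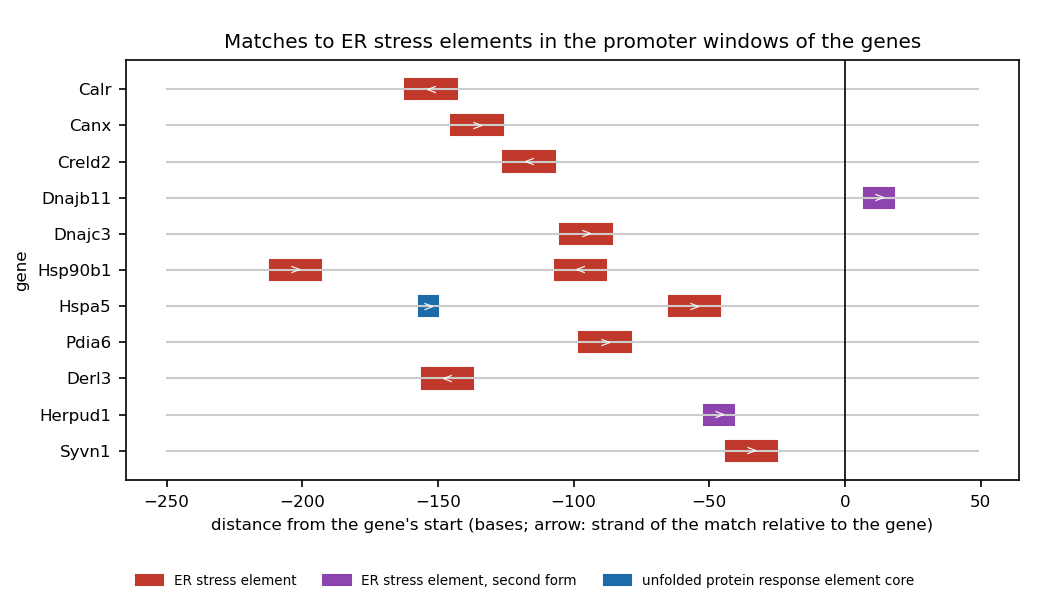
Matches to the stress elements in the promoter windows of the 11 genes that hold an ER stress element. The x axis is the distance from the gene's start in bases, each grey line is a window, coloured boxes are matches and arrows give the strand of the match; 10 of the genes have their elements before the start and Dnajb11 after it.

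In wild-type mice most of the ER genes were higher in zymogenic than in neck cells. Of the 46 members, 39 lay above 0, or 84.8%, where 49.3% of all 9791 genes did. At least 2-fold higher were 8 members, or 17.4%, against a background of 4.37% of all genes, and 1 member, or 2.17%, was at least 2-fold lower, against 6.35%. At 1.5-fold, a threshold chosen after the values were seen, 19 were higher and 4 lower, with 13.5% and 16.7% of all genes past it in the same directions. The median difference was 0.46 over the members and -0.01 over all genes. In MIST1-null mice 39 of 46 were again above 0, against 52.7% of all genes, and 36 of 46 had the same sign in both genotypes, or 78.3%, against 60.1% of all genes. There 5 members were at least 2-fold higher and 1 lower, against 3.64% and 4.03% of all genes, and 19 and 1 passed 1.5-fold, against 11.8% and 11.1%. The median difference was 0.53 over the members and 0.03 over all genes. These comparisons share no array. Across the members Pearson's r between them was 0.56 and Spearman's rho 0.38, against 0.47 and 0.31 across all genes, as a description of genes that are not independent.

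Considering all 4 arrays, 26 of 46 members were higher in both zymogenic arrays than in either neck array, or 56.5%, against 22.3% of all genes. The opposite order held for 2 members, Pdia3 and Dnajc10, or 4.35%, against 20.9%. The MIST1-null zymogenic array was the highest for 27 members, or 58.7%, against 27.7% of all genes, and the wild-type zymogenic array for 16, or 34.8%, against 27.6%. The wild-type neck array was the highest for 0, against 20.7%, and the lowest for 27, or 58.7%, against 22.8%.

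**Figure D2:**
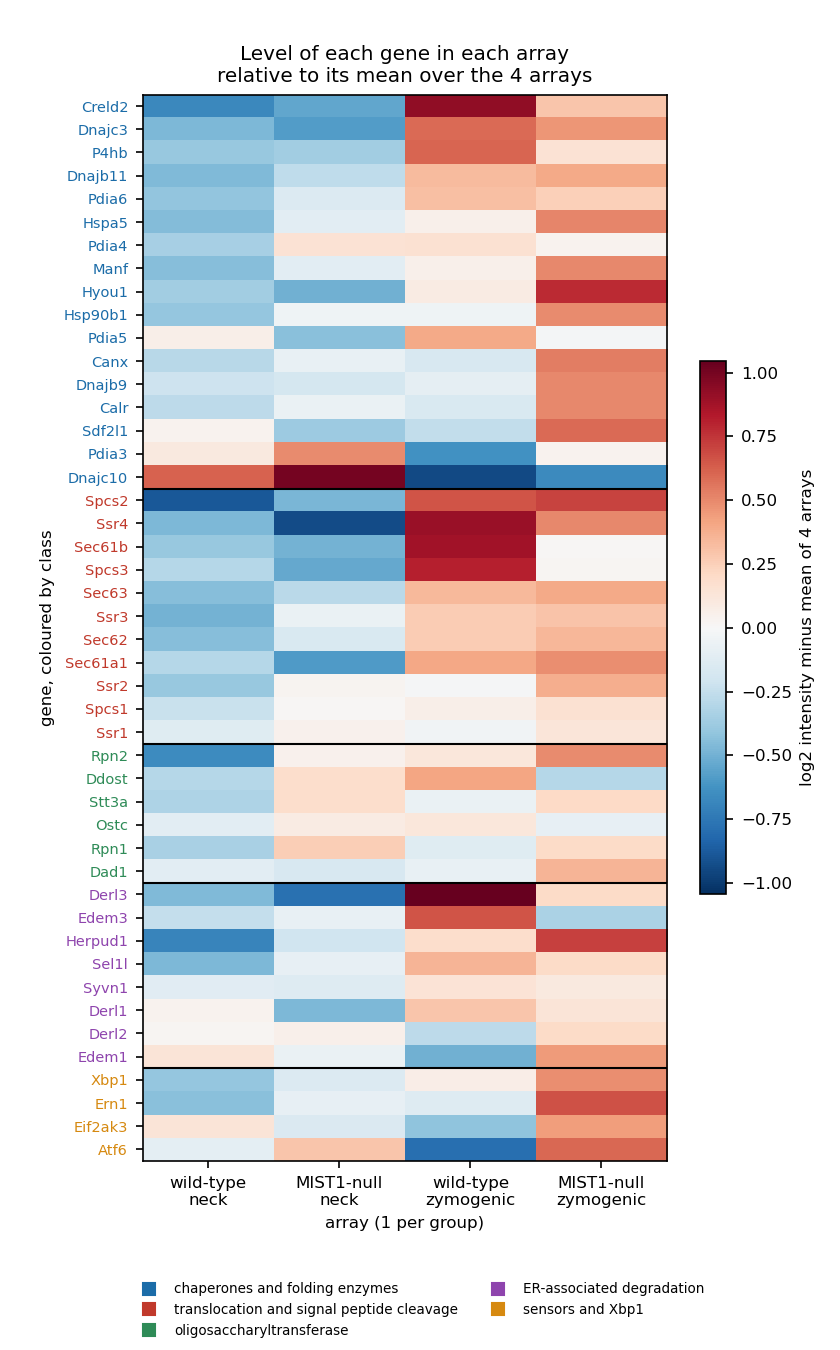
Level of each of the 46 genes in each of the 4 arrays, as log2 intensity minus the gene's mean over the arrays (red above, blue below), with genes grouped by class and ordered within a class by the wild-type difference between cells. Both neck columns are mostly blue, and the MIST1-null zymogenic column holds the highest value for 27 genes.

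Between the cells, the measured translocation members all had the same sign. All 11 measured members were higher in zymogenic cells in both genotypes, against 49.3% of all genes in wild-type and 52.7% in MIST1-null mice. Their median was 0.76 in wild-type and 0.51 in MIST1-null mice. Of the 11, 9 were higher in both zymogenic arrays than in either neck array, or 81.8%, against 22.3% of all genes. Sec61a1, the pore of the translocon, had intensities of 265.7 in wild-type neck, 215.8 in MIST1-null neck, 430.5 in wild-type zymogenic and 457.8 in MIST1-null zymogenic cells. It was therefore higher in zymogenic cells by 0.70 in wild-type and by 1.08 in MIST1-null mice. Sec62 and Sec63, which help chains enter the channel, had differences of 0.71 and 0.78 in wild-type and 0.51 and 0.68 in MIST1-null mice.

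Spcs2, a subunit of the signal peptidase that trims signal peptides, read 108.1 and 143.6 in wild-type and MIST1-null neck cells and 316.0 and 327.4 in the zymogenic cells. The neck and zymogenic values were far apart, with differences of 1.55 and 1.19, and those of the genotypes close. Its partner Spcs3 read 792.3 and 671.4 in neck cells, 1712 in wild-type zymogenic and 988.2 in MIST1-null zymogenic cells. The wild-type zymogenic array thus stood above the other 3, and the differences between cells were 1.11 in wild-type and 0.56 in MIST1-null mice. Spcs1, the third subunit, differed by 0.29 and 0.15.

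Ssr4, the delta subunit of the translocon-associated protein complex, which helps chains enter at the channel, had intensities of 254.8 and 184.7 in wild-type and MIST1-null neck cells and of 661.1 and 499.5 in zymogenic cells. Its differences of 1.38 and 1.44 were alike in size in both genotypes. The other subunits differed less, with Ssr3 at 0.76 and 0.37, Ssr2 at 0.38 and 0.36 and Ssr1 at 0.09 and 0.08 in wild-type and MIST1-null mice. Sec61b, the beta subunit of the translocon, read 407.6 and 380.9 in neck cells, 988.0 in wild-type zymogenic and 540.8 in MIST1-null zymogenic cells, which gave differences of 1.28 and 0.51. It has 3 probe sets with nearly the same values, whose wild-type differences ran from 1.18 to 1.28, and they were counted as 1 measurement.

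Chaperones and folding enzymes had a median difference between the cells of 0.46 in wild-type and 0.61 in MIST1-null mice. In each genotype 14 of 17 were above 0, or 82.4%, against 49.3% and 52.7% of all genes. Hspa5, or BiP, the main ER chaperone of the Hsp70 family, read 1204 in wild-type neck, 1525 in MIST1-null neck, 1710 in wild-type zymogenic and 2350 in MIST1-null zymogenic cells. Hsp90b1, or GRP94, its Hsp90 counterpart, read 2323, 2985, 2984 and 4345 in the same order. Both genes were lowest in wild-type neck and highest in MIST1-null zymogenic cells, with cell type differences of 0.51 and 0.62 for Hspa5 and of 0.36 and 0.54 for Hsp90b1.

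Helpers of BiP differed among themselves. Dnajc3, a co-chaperone that also restrains PERK, read 1066 and 981.6 in neck and 2223 and 2031 in zymogenic cells of wild-type and MIST1-null mice, a difference of 1.06 and 1.05. Its 2 probe sets carry identical values and count as 1 measurement. Hyou1, a large chaperone that recharges BiP with nucleotide, read 148.4 and 135.2 in neck cells, 203.5 in wild-type zymogenic and 329.1 in MIST1-null zymogenic cells, so that its differences were 0.46 and 1.28. Dnajb11 differed by 0.79 and 0.66, and Dnajb9 by 0.13 and 0.69.

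Creld2, a secreted ER stress protein with isomerase activity, had the largest wild-type difference of the members, 1.60, with 183.9 in neck and 556.9 in zymogenic cells. Without MIST1 its intensities were 201.9 in neck and 359.6 in zymogenic cells, a difference of 0.83. P4hb, the disulfide isomerase PDI, read 289.8 and 296.9 in neck cells, 582.1 in wild-type zymogenic and 422.9 in MIST1-null zymogenic cells. Its wild-type difference of 1.01 barely passed 2-fold, and it was 0.98 with quantile normalization, 0.95 with median centring and 0.93 with a pseudocount of 32. In MIST1-null mice it was 0.51.

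Against the rest of its class, Dnajc10 was lower in zymogenic cells. This reductase, also known as ERdj5, opens disulfide bonds of proteins bound for degradation. It read 488.3 and 636.0 in neck and 165.4 and 200.5 in zymogenic cells of wild-type and MIST1-null mice. Neck and zymogenic arrays did not overlap, and the differences of -1.56 and -1.67 were the lowest among the members in both genotypes. Pdia3, the isomerase that works with calnexin and calreticulin on glycoproteins, was also lower in zymogenic cells, with 1848 and 2422 in neck against 1106 and 1761 in zymogenic cells and differences of -0.74 and -0.46. Its partners Canx (calnexin) and Calr (calreticulin) had differences of 0.13 and 0.12 in wild-type and 0.61 and 0.58 in MIST1-null mice.

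Degradation genes had median differences between the cells of 0.54 in wild-type and 0.40 in MIST1-null mice over 8 members. The wild-type median was 0.27 when Edem2 was added by leaving out the filter, and also 0.27 with the 75th percentile filter. Derl3, a channel-like protein of retrotranslocation found in secretory cells, read 57.5 and 46.0 in neck cells, 163.3 in wild-type zymogenic and 91.0 in MIST1-null zymogenic cells. The wild-type zymogenic array was the highest, and the differences were 1.51 and 0.98. Its relatives Derl1 and Derl2 differed by 0.26 and -0.29 in wild-type and by 0.61 and 0.15 in MIST1-null mice.

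Sel1l, the scaffold of the main ubiquitin ligase complex of the ER, read 101.8 and 132.6 in neck and 180.0 and 161.6 in zymogenic cells of wild-type and MIST1-null mice, a difference of 0.82 and 0.29. Syvn1, the ligase it holds, also named HRD1, read 147.5 and 146.5 in neck and 177.5 and 172.6 in zymogenic cells, a difference of 0.27 and 0.24. Herpud1, which organises that complex, differed by 0.88 and 0.92.

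The oligosaccharyltransferase had a median difference between the cells of 0.24 over 6 subunits in wild-type and of -0.01 in MIST1-null mice, the latter at 0.04 with quantile normalization. In MIST1-null mice its subunits lay on both sides of 0, from -0.48 for Ddost to 0.53 for Dad1. Stt3a, a catalytic subunit, read 598.1 and 845.6 in neck and 709.7 and 863.9 in zymogenic cells of wild-type and MIST1-null mice, a difference of 0.25 and 0.03. Rpn1, which presents substrates to the enzyme, read 181.9 and 275.8 in neck and 211.1 and 265.2 in zymogenic cells, a difference of 0.21 and -0.06. For both subunits the wild-type neck array was the lowest of the 4. Ddost differed by 0.71 in wild-type and by -0.48 in MIST1-null mice.

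The sensor class had a median difference of -0.12 in wild-type and 0.61 in MIST1-null mice; the former was -0.55 under both filters that left out Ern1. Atf6 read 112.8 in neck and 70.2 in zymogenic cells of wild-type mice, and 147.6 and 183.5 in those of MIST1-null mice, a difference between the cells of -0.68 and 0.31. Eif2ak3 read 144.1 and 98.2 in wild-type and 117.8 and 177.3 in MIST1-null neck and zymogenic cells, or -0.55 and 0.59. For both genes the lowest value was in wild-type and the highest in MIST1-null zymogenic cells.

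Ern1 was low throughout, with 32.9 and 42.0 in neck and 40.6 and 70.5 in zymogenic cells of wild-type and MIST1-null mice, so that only the last value exceeded the filter level of 43.7, and its differences of 0.30 and 0.75 rest on weak signal. Xbp1 read 217.0 and 260.1 in neck and 301.0 and 402.3 in zymogenic cells, a difference of 0.47 and 0.63, and was the only gene of this class that was higher in both zymogenic arrays than in either neck array. Splicing of its message cannot be read from these probe set values.

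**Figure D3:**
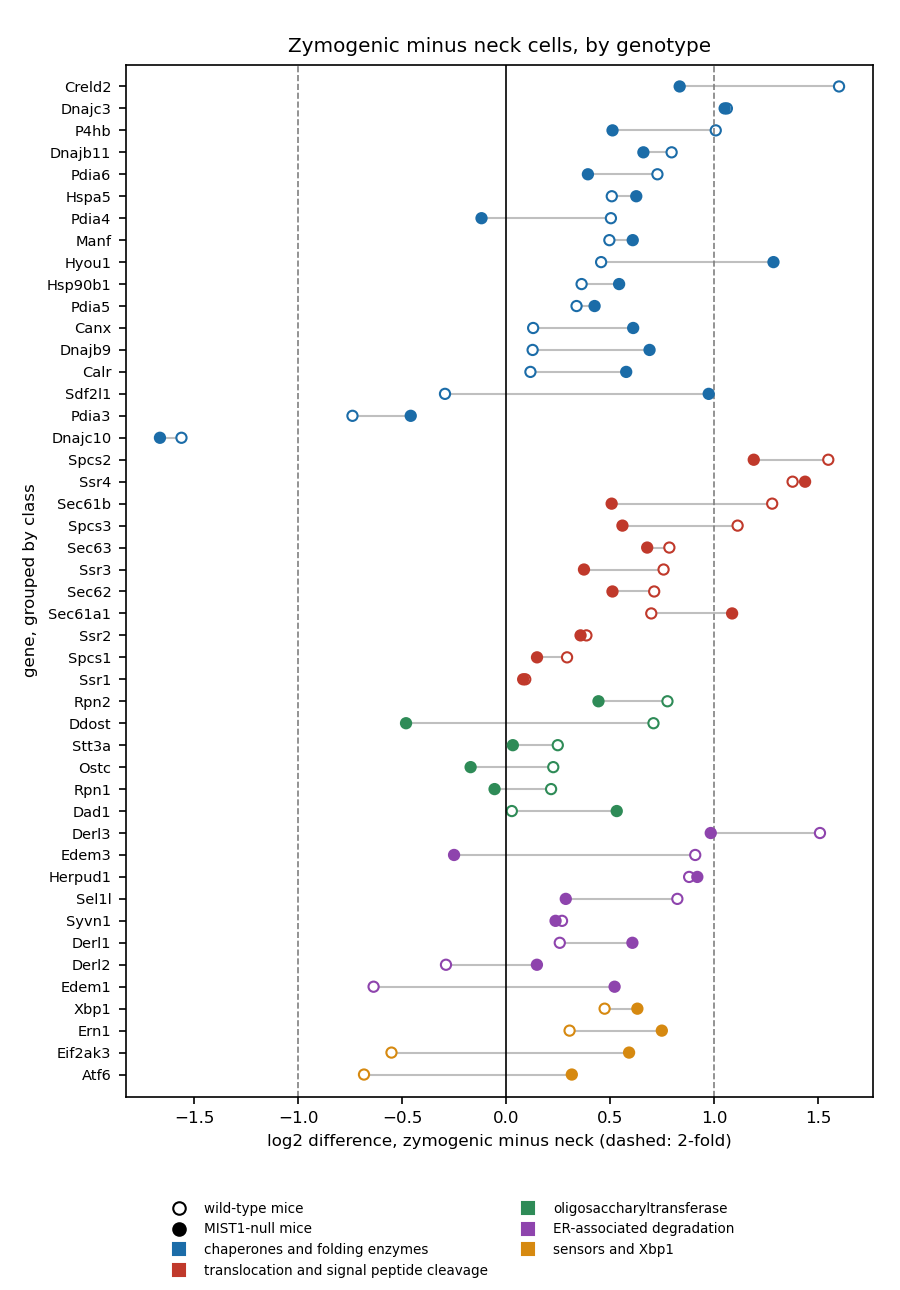
Difference between zymogenic and neck cells for each of the 46 genes, on the log2 scale, in wild-type (open) and MIST1-null mice (filled), with dashed lines at 2-fold. All 11 translocation genes lie to the right of 0 in both genotypes, Dnajc10 is furthest left, and Atf6, Eif2ak3, Edem1, Derl2 and Sdf2l1 lie left of 0 in wild-type and right of it in MIST1-null mice.

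The 11 genes with an ER stress element in their promoter window were all higher in zymogenic cells in both genotypes. Of all genes, 49.3% were higher there in wild-type and 52.7% in MIST1-null mice. Their differences ran from 0.12 to 1.60 in wild-type mice, with a median of 0.73, and from 0.24 to 1.05 in MIST1-null mice, with a median of 0.62. Among the 27 counted members whose window held no element, 21 were above 0 in each genotype, and the medians were 0.34 and 0.44. Their ranges, from -1.56 to 1.55 and from -1.67 to 1.44, overlapped those of the genes with an element. Of the 11, 8 were chaperones or folding enzymes and 3 degradation genes, so element and class were not separate. Between the genotypes the genes with an element had the lower medians. In zymogenic cells 6 of the 11 genes with an element were higher in MIST1-null mice, with a median of 0.07. They ran from -0.84 for Derl3 to 0.70 for Canx. Without an element 19 of 27 were higher, with a median of 0.17, and of all genes 55.2% were. In neck cells the medians were 0.20 and 0.25. The stretches are matches of letters, and binding to them was not measured here.

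Between the genotypes, zymogenic cells gave differences in both directions. Of the 46 members 30 were above 0, or 65.2%, against 55.2% of all genes, and the median was 0.13 against 0.07 over all genes. At least 2-fold higher was 1 member, or 2.17%, against 4.73% of all genes, and 0 were 2-fold lower, against 3.78%. At 1.5-fold 10 members were higher, or 21.7%, and 6 lower, or 13.0%, against 16.0% and 12.2% of all genes. In zymogenic cells the 2-fold shares were thus under those of all genes. The share above 0 and the share 1.5-fold higher were above those of all genes, and the share 1.5-fold lower was near it. Whether these gaps exceed the spread between samples was not tested, since each group was 1 array. Neck cells and the members higher in both MIST1-null arrays are described below.

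All 4 genes of the sensor class were higher in zymogenic cells that lacked MIST1, with a median of 0.82, where 55.2% of all genes were higher. Atf6 lay furthest from 0 of all members at 1.39, or 2.61-fold, with the 70.2 and 183.5 given above. Eif2ak3 differed by 0.85, Ern1 by 0.80 and Xbp1 by 0.42. Ern1 lay under the filter level in the wild-type array, at 40.6. Over 13 further stress response genes outside the members the median was 0.27 in this comparison, with 10 above 0. With a pseudocount of 32, which weakens differences of dim genes, the class median was 0.59 and Atf6 stood at 1.08.

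Among chaperones the median was 0.44, against 0.07 over all genes. Above 0 were 11 of 17, or 64.7%, against 55.2% of all genes. Hspa5 differed by 0.46, Hsp90b1 by 0.54, Manf, a secreted stress protein, by 0.44 and Hyou1 by 0.69. Canx at 0.70, Calr at 0.66 and Pdia3 at 0.67, which work together on glycoproteins, were also higher in MIST1-null zymogenic cells. Sdf2l1, a partner of ERdj proteins, read 57.4 in wild-type and 103.4 in MIST1-null zymogenic cells, a difference of 0.85, and Dnajb9 differed by 0.60. In the other direction were Creld2 at -0.63, P4hb at -0.46 and Pdia5, another isomerase, at -0.41. Pdia4 differed by -0.13 on its brighter probe set and by 1.24 on a dim one that read 15.6 and 36.8, under the filter level in both arrays.

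Edem1, which extracts misfolded glycoproteins for degradation, had intensities of 97.8 and 84.8 in wild-type and MIST1-null neck cells, 62.9 in wild-type zymogenic and 121.6 in MIST1-null zymogenic cells. Its genotype difference in zymogenic cells was 0.95, just under 2-fold, and 1.00 with median centring. Its relative Edem3 went the other way, with 445.6 in wild-type and 225.1 in MIST1-null zymogenic cells, a difference of -0.99, while its neck values were 237.5 and 267.9. Derl3 differed by -0.84 and Herpud1 by 0.53. The class median was -0.10, with 3 of 8 above 0, or 37.5%, against 55.2% of all genes.

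The translocation class had a median genotype difference of 0.06 in zymogenic cells, equal to that of all genes within 0.1. Sec61b at -0.87 and Spcs3 at -0.79 were its lowest members, and both had their highest intensity in the wild-type zymogenic array. The remaining members lay between -0.40 for Ssr4 and 0.40 for Ssr2. In the oligosaccharyltransferase Ddost differed by -0.71, from 195.9 to 120.2, and the other 5 subunits lay between -0.20 and 0.44.

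The wild-type zymogenic array enters both the cell type difference of wild-type mice and the genotype difference of zymogenic cells, so a gene that is high or low in that array alone appears in both with opposite sign. It held the highest value of 16 members and the lowest of 6, or 13.0%, where 32.4% of all genes were lowest in it. It was also the array with the lowest summed parietal markers, given above, and the part of this in the members' values was not tested.

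In neck cells the genotypes lay closer together. No member was 2-fold higher or lower, against 1.27% and 1.60% of all genes, shares that were 1.55% and 1.24% with median centring. At 1.5-fold 2 members were higher and 0 lower, against 7.23% and 7.67%. Of the 46, 32 were above 0, or 69.6%, against 51.2%, and the median was 0.20 against 0.01 over all genes. The members past 1.5-fold were both subunits of the oligosaccharyltransferase: Rpn2 at 0.71, from 129.7 to 211.5, and Rpn1 at 0.60. With Stt3a at 0.50, Ddost at 0.48 and Ostc at 0.19, 5 of its 6 subunits were above 0, Dad1 was at -0.06, and the class median was 0.49. Subunits of this enzyme outside the members all lay under that median. Ost4 was at 0.29, Stt3b and Krtcap2 were at 0.18, Tusc3 was at 0.08 and Magt1 at 0.06.

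Other classes differed less in neck cells, with medians of 0.31 for sensors and Xbp1, 0.20 for chaperones, 0.18 for translocation and 0.01 for degradation, the last at -0.00 with quantile normalization. Hspa5 and Hsp90b1 were at 0.34 and 0.36, Pdia4 was at 0.50 and Herpud1 at 0.49. Derl1 and Pdia5 were lowest, both at -0.50. The genotype differences of the neck and zymogenic cells share no array, and across the members Pearson's r between them was 0.22 and Spearman's rho 0.19, against 0.16 and 0.15 across all genes. Higher in the MIST1-null array of both cell types were 24 of 46 members, or 52.2%, against 30.6% of all genes, and 10 were higher in both MIST1-null arrays than in either wild-type array, or 21.7%, near the 17.8% of all genes.

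**Figure D4:**
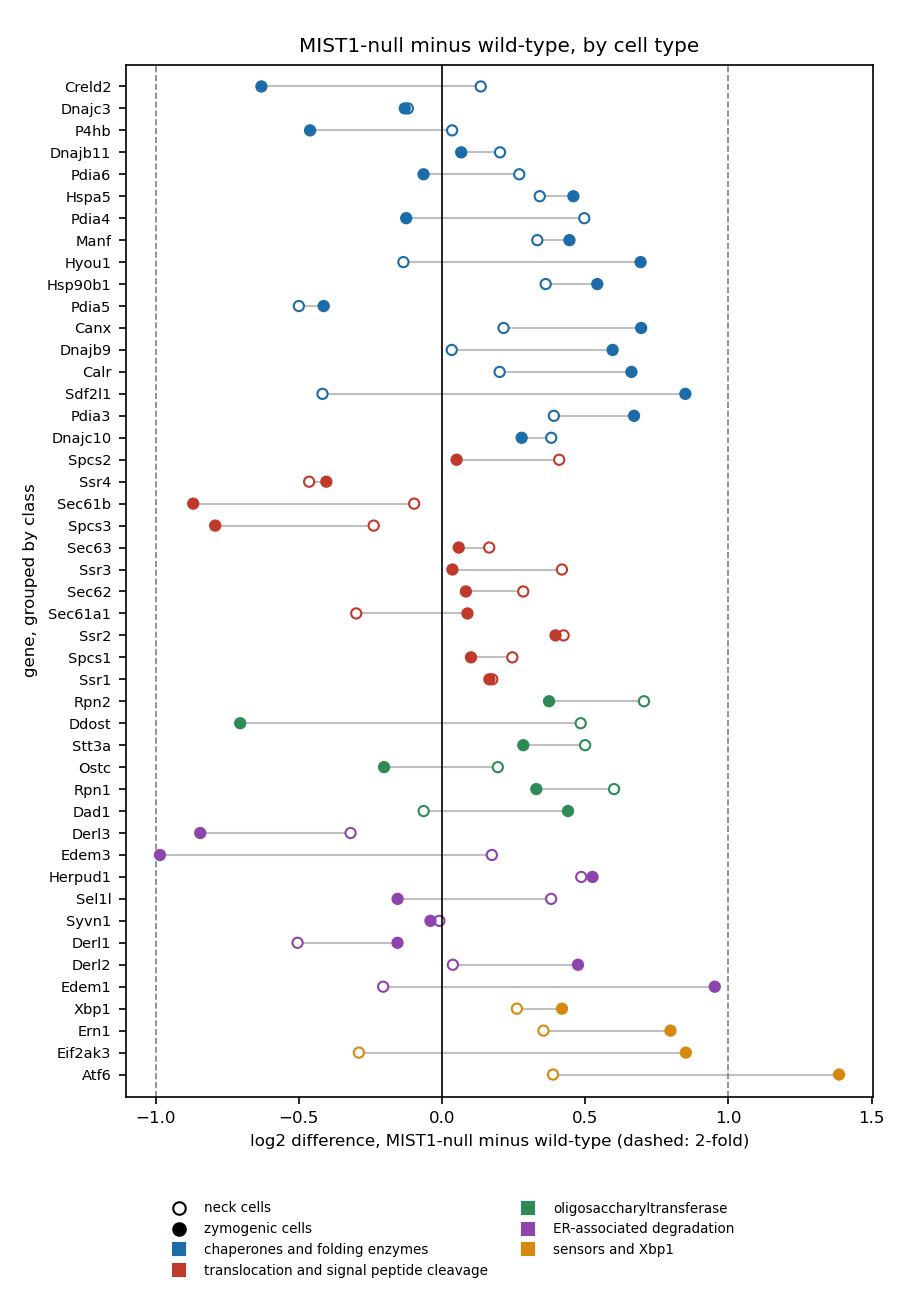
Difference between MIST1-null and wild-type mice for each of the 46 genes, on the log2 scale, in neck cells (open) and zymogenic cells (filled), with dashed lines at 2-fold. Open points stay between -0.50 and 0.71, and Atf6 in zymogenic cells, at 1.39, is the only point past 2-fold.

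Some members had opposite signs in matched comparisons, with both sizes at least 0.3, a limit set after the values were seen. For the difference between the cells these were 4 of 46, or 8.70%, against 9.22% of all genes, namely Atf6, Eif2ak3, Edem1 and Ddost. For the genotype difference they were 2 of 46, or 4.35%, against 9.55%, namely Ddost and Sdf2l1. These shares are no higher than those of all genes.

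**Figure D5:**
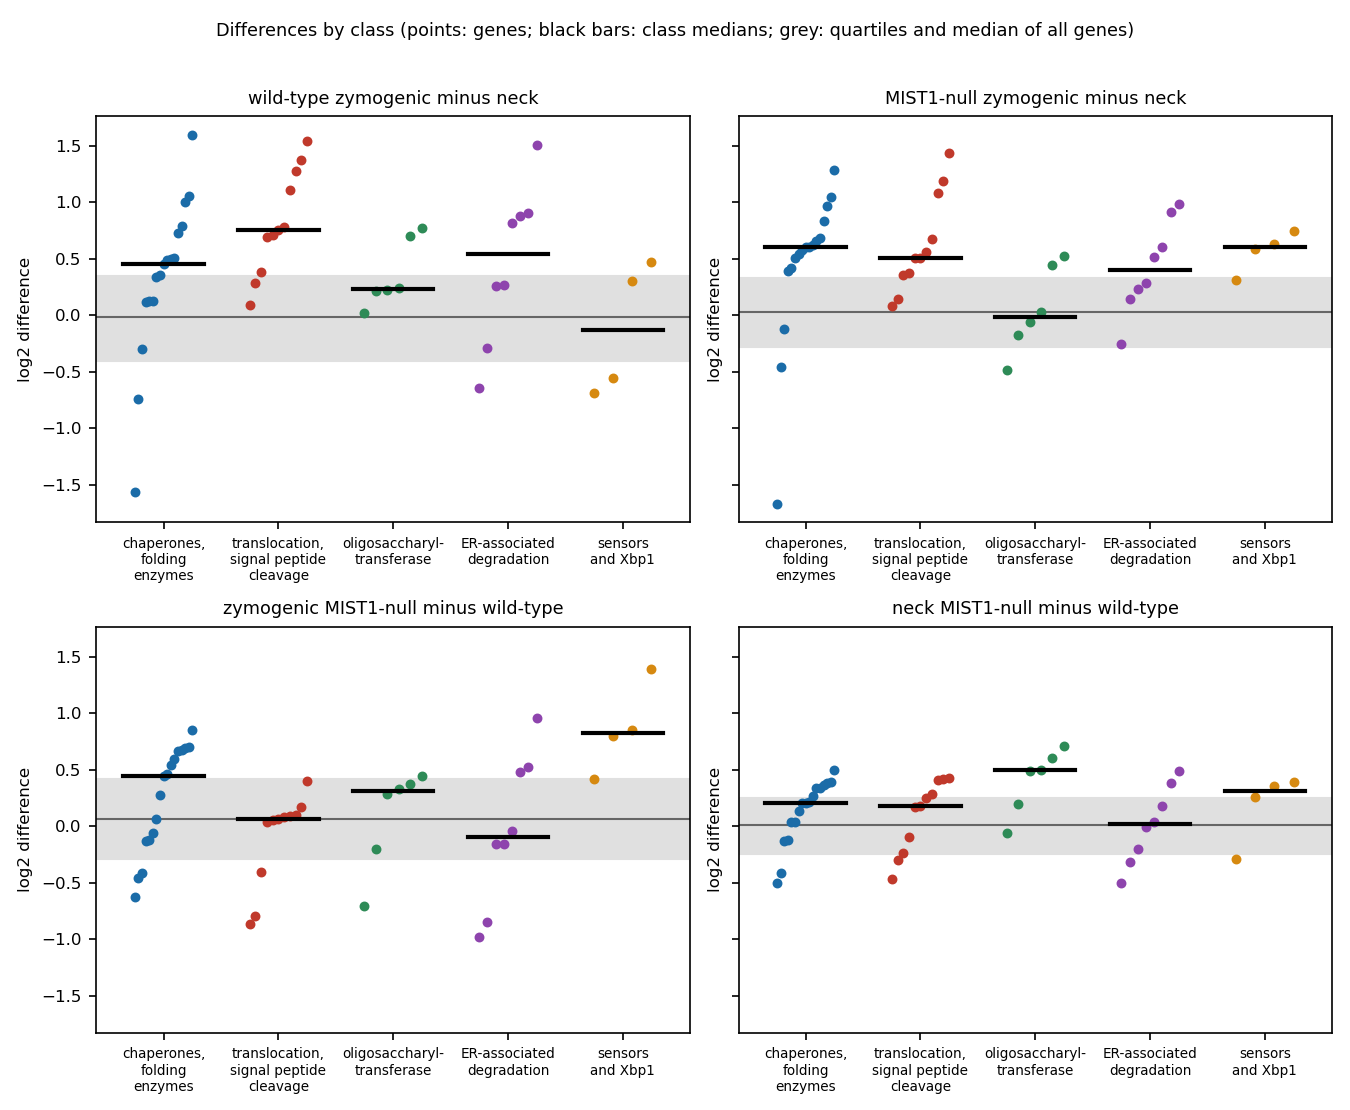
Log2 differences of the genes of each class in the 4 comparisons, with black bars at the class medians, the median of all 9791 genes as a grey line and their quartiles as a grey band. The translocation bar lies at 0.76 and 0.51 in the comparisons of the cells and at 0.06 and 0.18 in those of the genotypes, while the bar of sensors and Xbp1 lies at -0.12 in wild-type and 0.61 in MIST1-null mice.

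A wider list of 81 further ER genes was read in the same way, of which 73 were measured and 63 passed the filter. In wild-type mice 9 of the 63 were higher in zymogenic cells by 2-fold or more, or 14.3%, and 4 lower, or 6.35%, against 4.37% and 6.35% of all genes, with a median of 0.29. In MIST1-null mice 7 were higher, or 11.1%, and 5 lower, or 7.94%, against 3.64% and 4.03%, with a median of 0.24. Between the genotypes 2 were higher and 1 lower in zymogenic cells and likewise in neck cells, or 3.17% and 1.59% in each, against 4.73% and 3.78% of all genes in zymogenic and 1.27% and 1.60% in neck cells.

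The folding genes beyond the members included large differences of both signs. Fkbp11, a prolyl isomerase of secretory cells, read 55.7 and 48.6 in neck and 259.6 and 248.0 in zymogenic cells of wild-type and MIST1-null mice, a difference of 2.22 and 2.35. Ero1b, an oxidase that supplies disulfide bonds and is known from endocrine and exocrine cells, differed by 2.11 and 2.88, and Pdia2, an isomerase known from the pancreas, by 1.92 and 2.58. Agr2, the isomerase needed for mucins, went the other way at -3.45 and -3.96. In zymogenic cells Txndc11 was higher in MIST1-null mice by 1.20, and in neck cells Ero1a was higher by 1.08; their highest intensities were 106.9 and 108.4. Rcn1, a calcium-binding protein, differed between the cells by 0.56 and 1.22.

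Genes of targeting, glycosylation and degradation that passed the filter and were at least 2-fold apart in wild-type mice were all higher in zymogenic cells. They were the signal recognition particle subunit Srp9 at 1.06, the oligosaccharyltransferase subunits Magt1 at 1.02 and Krtcap2 at 1.10, Dpagt1, which starts the sugar chain, at 2.05, the lectin Os9 at 1.19 and the degradation factor Ubxn4 at 1.15. In MIST1-null mice the same genes stood at 0.72, 1.01, 0.10, 0.16, 0.61 and 0.78. Prkcsh, a glycosylation gene under the filter, was lower in zymogenic cells of wild-type mice, at -1.38. Srpr, the receptor of the signal recognition particle, passed 2-fold in MIST1-null mice at 1.44, and Alg6, a glucosyltransferase, was lower there at -1.37. Between genotypes Tram1, a translocon partner, was at -1.09 and Sec11a, a catalytic signal peptidase subunit, at 1.02 in zymogenic cells, and Alg6 was at 1.07 in neck cells. Of the 11 further targeting and translocation genes past the filter, 8 were higher in zymogenic cells in wild-type and 7 in MIST1-null mice. Sec11a was lower in zymogenic cells of both genotypes, at -0.80 and -0.30.

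Further stress response genes had a median of -0.42 over 13 genes in wild-type mice, with 4 above 0, and of 0.05 in MIST1-null mice, with 7 above 0. Of all genes, 49.3% and 52.7% were above 0. Ern2, the IRE1 relative of mucus-secreting cells, read 228.1 and 276.7 in neck and 21.9 and 26.9 in zymogenic cells, a difference of -3.38 and -3.36. Creb3l4, an ATF6-like factor held in the ER membrane, read 267.5 and 317.2 in neck and 10.2 and 12.3 in zymogenic cells, a difference of -4.72 and -4.69. The zymogenic values of both genes lay under the filter level, so these sizes are not firm, but neck and zymogenic arrays were far apart in both genotypes. Nfe2l2, a factor of oxidative stress that PERK can activate, differed by -1.20 and -0.68. Creb3l1 was at -0.59 and -1.05, and Creb3l2 at -0.32 and 1.48 between the cells and at -1.23 between genotypes in neck cells, from 58.1 to 24.7.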

How the data were processed

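The deposited values were probe set intensities on a linear scale from 4 Affymetrix Mouse Gene 1.0 ST arrays, which the authors checked and compared in dChip per the series design text. The sources used here do not state background correction, probe summary, scaling or version. Array medians were 37.9 to 40.9 over 35512 probe sets. Of these, 21789 name 1 gene in the platform annotation, 1621 name several and 12102 are not listed there; only the first kind was used. Where several probe sets named a gene, that of the highest mean log2 value stood for it. Values were floored at 1 and taken as log2 in Python 3.11.15 with pandas 2.3.3. The counting was run on simulated arrays with known changes, which checks its arithmetic and not how counts vary between samples. Signal over background is unknown, and precision is limited by the number of arrays. Promoter windows are from RefSeq.

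The members, classes, wider list, markers and motifs were chosen with earlier results of these data known. Members were given array by array where they passed the filter on the mean and differed at least 2-fold in any comparison, with fixed representatives of each class (Hspa5, Hsp90b1, Sec61a1, Rpn1, Stt3a, Sel1l, Syvn1, Edem1, Xbp1, Atf6, Ern1 and Eif2ak3). Genes of the wider list were named where they did the same. Exceptions were Ost4, Stt3b and Tusc3, which stayed under 2-fold, and Prkcsh, which was under the filter. Also under the filter and past 2-fold were Fkbp14, at -1.52 between the cells in wild-type mice, and Atf3, at 1.34 between genotypes in zymogenic cells. Pdia3, Edem3, Sdf2l1, Ddost and Rpn2 were given more fully after their values were seen. Alternatives were quantile normalization, median centring, a pseudocount of 32, no filter, a filter at the 75th percentile, a filter on the higher of the arrays compared, and the mean of a gene's probe sets.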

Additional observations from a re-analysis of the deposited data

Results flagged for a closer look

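With 1 array per group, the members below had differences of opposite sign in matched comparisons, each at least 0.3 in size. This limit was set after the values were seen, and the difference between the comparisons was not tested. Between the cells such members were 8.70%, against 9.22% of all genes, and between the genotypes 4.35%, against 9.55%. The shares are thus no higher than those of all genes. Between zymogenic and neck cells, Edem1 was at -0.64 in wild-type and 0.52 in MIST1-null mice, Atf6 at -0.68 and 0.31, Eif2ak3 at -0.55 and 0.59, and Ddost at 0.71 and -0.48. Between genotypes, Sdf2l1 was at 0.85 in zymogenic and -0.42 in neck cells, and Ddost at -0.71 and 0.48.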

How the results depend on the processing

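The median differences of the members kept their sign under all 7 alternatives. They ran from 0.40 to 0.47 and from 0.46 to 0.58 between the cells in wild-type and MIST1-null mice. Between the genotypes they ran from 0.10 to 0.22 in zymogenic and from 0.13 to 0.25 in neck cells. The median over all genes moved as well. Between genotypes in zymogenic cells, both medians were 0.10 with the 75th percentile filter. With median centring the members were at 0.18 and all genes at 0.11. A kept sign there is thus not a kept gap to all genes. Of 84 comparisons of these medians and 2-fold counts with their reported values, 82 stayed within 0.1 or within 1.5 times. The exceptions were counts in zymogenic cells between genotypes: 1 member was 2-fold lower with quantile normalization, where Edem3 stood at -1.01, and 2 were 2-fold higher with median centring, where Edem1 joined Atf6. Genes near 2-fold crossed it, as Dnajc3 at 0.99 with median centring and Sec61a1 at 0.98 with the pseudocount, both in MIST1-null mice. No fit of pairs was possible with 1 array per group. All alternatives reused the same 4 arrays, and the filter settings counted 43 to 47 members against 46. The 82 comparisons that stayed close therefore do not measure the spread between samples.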
